A study of Homo sapiens with 24 samples.

Results

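The genes described here are 9 genes of the epithelial tight junction: the claudins CLDN1, CLDN3, CLDN4 and CLDN7, the occludin gene OCLN, the junctional adhesion molecule genes F11R and JAM3, and the scaffold genes TJP1 and TJP3. They were taken by symbol from count tables of 58735 gene rows, where each has 1 row. Polyadenylated RNA was sequenced from 3 human breast cancer lines, HCC1395, HCC38 and HCC1937, which are known for lacking the hormone receptors and amplified HER2. HCC1395 was given the vehicle DMSO, the EZH2 inhibitor tazemetostat at 5 µM (EZH2i), the AKT inhibitor ipatasertib at 5 µM (AKTi), or both (EZH2i+AKTi). HCC38 and HCC1937 were given DMSO or both inhibitors. Each of the 8 groups held 3 libraries, lettered A, B and C, and all groups were compared with the DMSO libraries of their own line. The labels do not say whether the libraries came from separate cultures, so p-values measure the spread between these libraries, which may be technical. The length of treatment is given for another line, so that of these 3 lines is not stated here.

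Tight junctions seal the gap between neighbouring epithelial cells near their apical side. Claudins are membrane proteins that form the strands and set which ions pass, and occludin strengthens the strands. F11R (JAM-A) and JAM3 (JAM-C) are adhesion molecules of the immunoglobulin family, and TJP1 (ZO-1) and TJP3 (ZO-3) are scaffolds that tie the strands to actin. In breast epithelium CLDN3, CLDN4 and CLDN7 are known as luminal claudins, and their loss marks the tumours called claudin-low. ZEB and SNAI factors are known repressors of junction genes and bind E-boxes, while GRHL factors are known activators of claudin genes. EZH2 places a repressive methyl mark on histones, and AKT is the kinase of a growth and survival pathway.

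In GENCODE release 29, on GRCh38, the 9 genes are spread over many chromosomes, and only CLDN3 and CLDN4 are neighbours. CLDN1 spans chr3:190305701-190322475 on the minus strand and starts 66 bp from CLDN16, which runs the other way. CLDN3 (chr7:73768997-73770270, minus) and CLDN4 (chr7:73799542-73832693, plus) are 29272 bp apart with 0 genes between them. CLDN7 spans chr17:7259903-7263983 on the minus strand and overlaps ELP5 on the opposite strand. OCLN lies at chr5:69492292-69558104 (plus), F11R at chr1:160995211-161021348 (minus) and TJP1 at chr15:29699367-29968865 (minus). JAM3 spans chr11:134068925-134152001 on the plus strand and overlaps NCAPD3 on the other. TJP3 spans chr19:3708109-3750813 (plus).

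Promoter stretches of CLDN1, CLDN3 and CLDN7 are shown. Claudins were chosen because they gave the widest spread between lines and CLDN1 was called higher in every comparison with DMSO. RefSeq windows on GRCh38.p14 of 250 bases before and 50 after a start site were given for 7 of the 9 genes, and not for F11R or JAM3. Both strands were searched for the E-box CACCTG, the GRHL core AACCGG, the full GRHL site AACCGGTT and the GC box GGGCGG. Sequences are written on the gene's strand, and capitals mark E-boxes and GRHL cores. The stretch of CLDN1 from 250 to 30 bases before its start (chr3:190322476-190322696, minus) holds 1 GRHL core and no E-box, the 250 bases before CLDN3 (chr7:73770271-73770520, minus) hold neither, and 3 short sites of CLDN7 hold 4 E-boxes, 1 of them adjoining a core. Those CLDN7 sites lie before a start of CLDN7 and, at every base, inside annotated untranslated sequence of another of its transcripts. They were cut around motifs, so they do not stand for the whole window. The window of CLDN4 and that of the other start of CLDN7 are not shown, and neither holds an E-box or a GRHL core.
CLDN1: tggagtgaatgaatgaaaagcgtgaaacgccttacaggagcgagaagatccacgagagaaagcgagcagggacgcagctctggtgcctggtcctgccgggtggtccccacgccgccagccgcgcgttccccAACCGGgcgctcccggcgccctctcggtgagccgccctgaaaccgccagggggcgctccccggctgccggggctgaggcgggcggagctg
CLDN3: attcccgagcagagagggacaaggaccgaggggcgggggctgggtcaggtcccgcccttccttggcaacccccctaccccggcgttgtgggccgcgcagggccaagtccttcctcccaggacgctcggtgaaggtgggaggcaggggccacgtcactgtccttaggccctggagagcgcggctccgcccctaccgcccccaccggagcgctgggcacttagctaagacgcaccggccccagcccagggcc
CLDN7 (chr17:7262639-7262663): ttcttcctcctCACCTGggcaagga
CLDN7 (chr17:7262601-7262626): acgacttCCGGTTCAGGTGagtgtcc
CLDN7 (chr17:7262479-7262506): catatactCAGGTGcgcccCACCTGtcc

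The window of CLDN7 that holds these sites has 5 E-boxes, a number reached by 33 of 35116 windows (0.094%). That cut-off was the number of this window itself, the richest in E-boxes of those searched for these genes. The share is thus a description and no test. The 7 genes have 13 windows, since some have several starts. An E-box was found in 20.6% of all windows and in 6 of the 13, which belong to OCLN, CLDN3, TJP1, CLDN7 and TJP3. The GRHL core was found in 7.23% of all windows and in 3 of the 13, which belong to CLDN1, OCLN and CLDN7, and the full site in 0.134% and in 0 of the 13. A GC box was found in 45.0% of all windows and in 10 of the 13. CpG pairs numbered 31 in the window of CLDN1, 24 in that of CLDN3, 10 and 30 in the 2 of CLDN7 (30 in the window shown) and 5 in that of CLDN4, where the median window held 14. These letters describe the windows and say nothing of binding.

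Library totals ran from 33469927 to 51815656 counts. Mitochondrial genes took 3.77 to 3.92% of the counts of HCC1395 with DMSO, 4.49 to 5.19% with EZH2i, 5.34 to 5.72% with AKTi and 6.14 to 6.3% with the combination. They took 5.08 to 5.82% in HCC38 under DMSO and 4.76 to 7.77% under both, the highest being library C, and 4.81 to 6.37% and 6.72 to 8.54% in HCC1937. The part of this share in the results was not tested. Of 8 epithelial markers, HCC38 and HCC1937 had 7 and 8 at a mean of at least 1 CPM (counts scaled to library size). HCC1395 had 6, but its adhesion genes were near 0 under DMSO, at 1.75 CPM for EPCAM and 0.35 CPM for CDH1, and the mesenchymal factors ZEB1 and ZEB2 stood at 39.7 and 23.0 CPM. ZEB1 was at 0.77 CPM in HCC38 and 0.23 CPM in HCC1937 under DMSO. Over all treatments CDH2, FN1, TWIST1 and VIM were also below every HCC1395 library in both lines, but VIM was still at 952 CPM in HCC38 under DMSO. SNAI2 did not separate the lines, at 7.65 to 28.1 CPM in HCC38, 22.5 to 73.7 in HCC1937 and 27.2 to 43.9 in HCC1395. Summed immune markers reached at most 11.8 CPM in any library. In bulk RNA, fewer cells of a type and less RNA per cell cannot be told apart.

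Under DMSO, HCC1395 differed from the other lines most in the luminal claudins and least in TJP1. CLDN4, a claudin that limits sodium passage, stood at 258, 280.25 and 263 CPM in libraries A, B and C of HCC38, at 366, 341 and 329 CPM in HCC1937, and at 1.94, 3.10 and 2.20 CPM in HCC1395. CLDN7, a luminal claudin that also lies along the lateral membrane, stood at 90.2, 94.4 and 83.1 CPM in HCC38, 188, 163 and 148 CPM in HCC1937 and 1.32, 1.02 and 0.779 CPM in HCC1395. For CLDN3, a sealing claudin, the values were 43.5, 41.7 and 37.5 CPM in HCC38, 25.8, 22.9 and 20.5 CPM in HCC1937 and 0.296, 0.199 and 0.0278 CPM in HCC1395. No library of HCC1395 came near the other lines for these 3 genes, and its CLDN3 values rest on 1 to 11 counts a library.

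A gene was called where its Benjamini-Hochberg adjusted p was under 0.05 in edgeR's quasi-likelihood test, which is two-sided. Where groups of libraries are said to be apart or not to overlap, the share of all genes so separated was not counted. Between HCC38 and HCC1395 under DMSO, 7 of the 9 genes were higher in HCC38 and 1 was lower, in a comparison where 38.2% of 20697 genes were called higher and 36.5% lower. The largest differences were those of CLDN3, at a log2 difference of 7.84 ± 0.41 (SE, adjusted p = 7.49e-23), CLDN4, at 6.79 ± 0.13 (3.21e-27), and CLDN7, at 6.41 ± 0.25 (7.56e-18). F11R (3.95 ± 0.06), OCLN (3.61 ± 0.14), TJP3 (3.37 ± 0.12) and CLDN1 (2.26 ± 0.11) were higher as well. Between HCC1937 and HCC1395, 8 were higher in HCC1937 and 1 was lower, against 37.3% and 35.7% of all genes. Here the differences were 7.31 ± 0.25 for CLDN7, 7.16 ± 0.13 for CLDN4, 7.01 ± 0.41 for CLDN3, 5.49 ± 0.12 for TJP3 and 5.12 ± 0.11 for CLDN1. The median log2 difference over the 9 genes was 3.61 in the first comparison and 5.12 in the second, and that over all genes 0.02 and 0.01.

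JAM3 and TJP1 did not share this order. JAM3, known in endothelium and germ cells as well as epithelium, stood at 2.83, 2.11 and 2.03 CPM in HCC1395 under DMSO, at 0.799, 1.32 and 1.18 CPM in HCC38 and at 0.938, 0.837 and 0.50 CPM in HCC1937. It was the 1 gene of the 9 that was lower in HCC38 (-1.08 ± 0.20, edgeR adjusted p = 2.02e-05) and in HCC1937 (-1.63 ± 0.21, 3.19e-08) than in HCC1395. TJP1 stood at 90.02, 89.1 and 84.7 CPM in HCC1395 and 91.2, 80.8 and 91.9 CPM in HCC38, where the groups overlap and the 95% interval of the log2 difference ran from -0.19 to 0.19. In HCC1937 it stood at 112, 126 and 128 CPM, above every DMSO library of the other lines (0.47 ± 0.09 against each of them).

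Between the 2 lines with abundant claudins, HCC1937 was higher than HCC38 for 7 genes and lower for 2, against 36.2% and 35.6% of all genes tested. CLDN1 differed most, at 77.2, 74.8 and 82.3 CPM in HCC1937 and 10.95, 10.2 and 11.002 CPM in HCC38 (log2 difference 2.86 ± 0.08, edgeR adjusted p = 2.1e-22). TJP3 followed, at 94.96, 85.6 and 75.8 CPM against 19.2, 20.0 and 19.9 CPM (2.12 ± 0.09, 1.51e-18). OCLN (1.01 ± 0.10), CLDN7 (0.90 ± 0.14), F11R (0.61 ± 0.06), TJP1 and CLDN4 (0.37 ± 0.09) were higher in HCC1937, and CLDN3 was lower (-0.83 ± 0.12). JAM3 was lower too (-0.55 ± 0.23, adjusted p = 0.0359), but it was not called without HCC38 DMSO B (-0.40, 0.18), HCC38 DMSO C (-0.48, 0.11) or HCC1937 DMSO C (-0.30, 0.253), nor with no low-count filter (0.064).

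**Figure D1:**
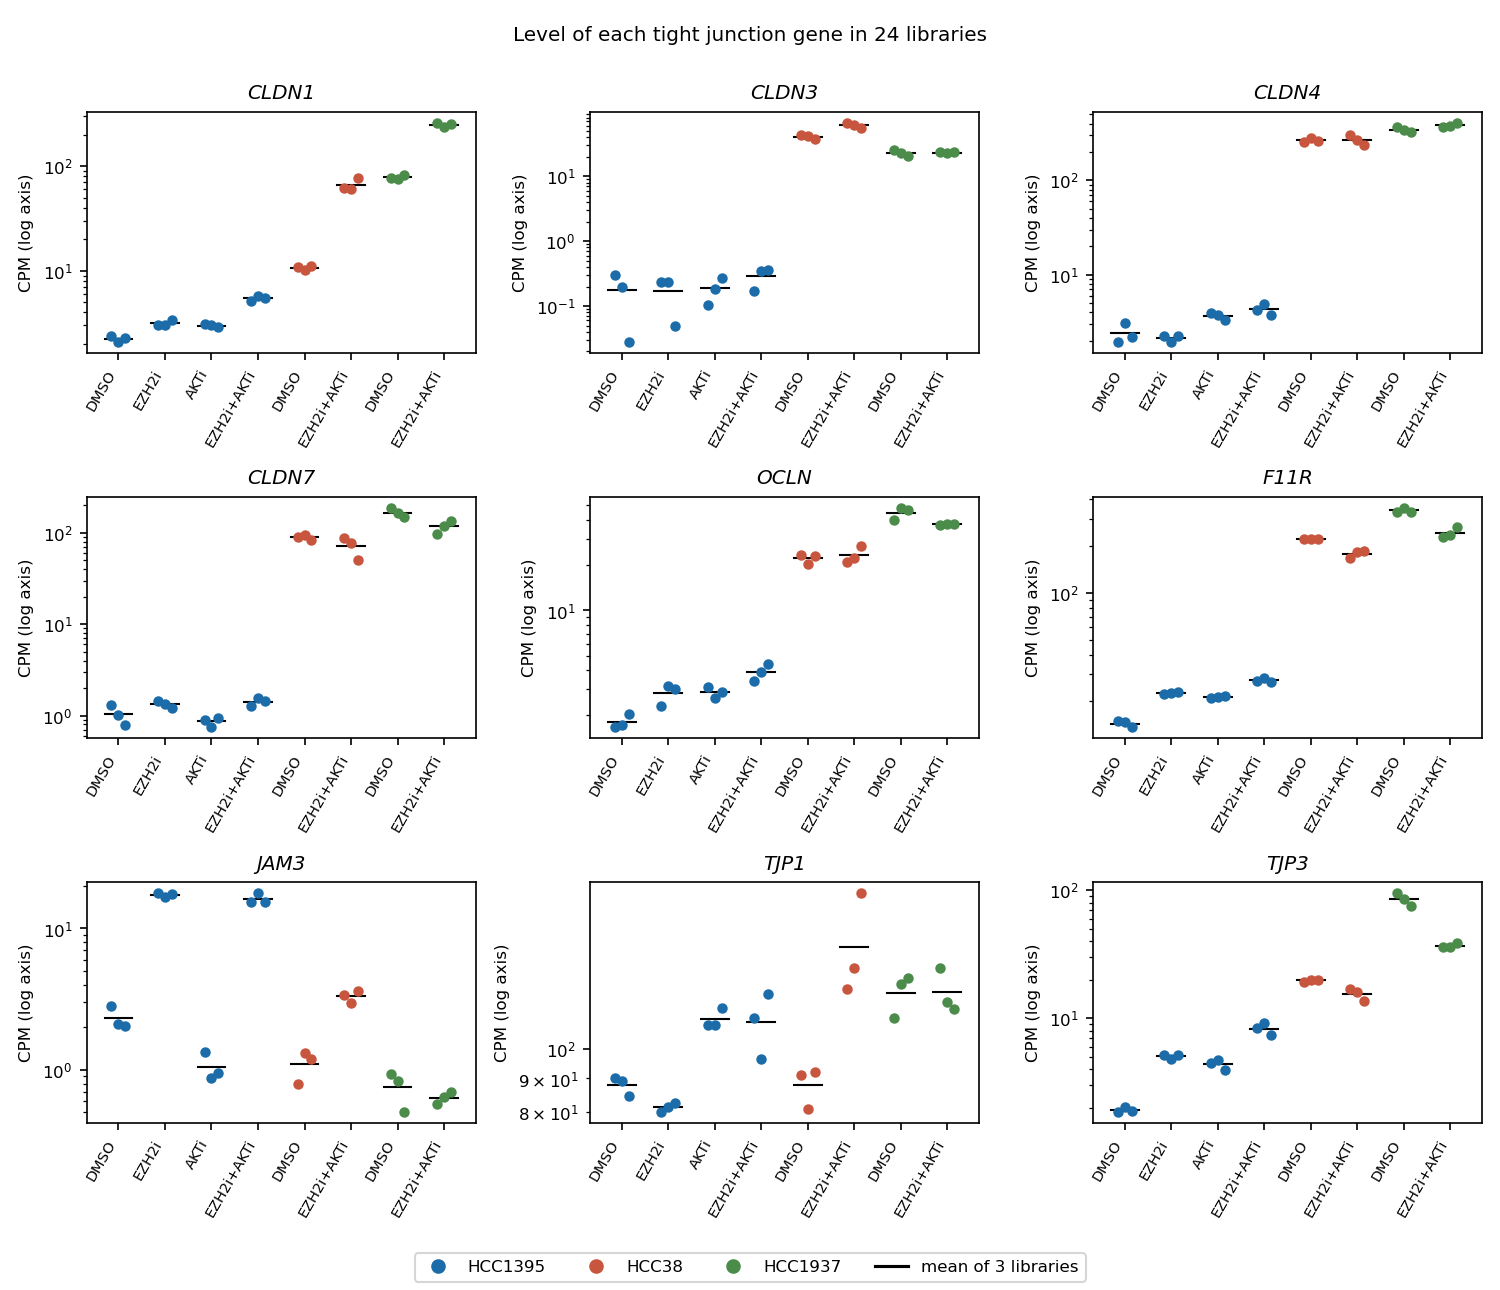
Level of each of the 9 genes in CPM (log axis, scale set per panel) in the 24 libraries, grouped by line (colour) and treatment; bars are means of 3 libraries. The claudins, OCLN, F11R and TJP3 are lowest in HCC1395, JAM3 is highest in HCC1395 under EZH2i and under both inhibitors, and TJP1 stays between 79.8 and 173 CPM.

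Levels of different genes can be set side by side, roughly, as CPM per kb of annotated exon. The length joins the exons of all annotated transcripts, 4702 bp for CLDN4 and 1274 bp for CLDN3. A gene with exons that these cells do not use is understated. The gene order and the claudin shares below therefore depend on the annotation as well. On that scale the order under DMSO was CLDN4, F11R, CLDN7 and CLDN3 in HCC38, at 56.8 ± 2.46, 43.9 ± 0.195, 35.8 ± 2.29 and 32.1 ± 2.45 CPM per kb (SD, n = 3). CLDN7 lay above CLDN3 in each of the 3 libraries, though their ranges over libraries overlap. TJP1, TJP3, OCLN and CLDN1 followed at 7.81, 4.67, 3.29 and 2.93 CPM per kb, and JAM3 came last at 0.202. In HCC1937 CLDN4 (73.5 ± 4.01), F11R (67.1 ± 2.10) and CLDN7 (66.8 ± 7.96) led, and F11R and CLDN7 did not differ beyond their spread. CLDN1 (21.3 ± 1.05), TJP3 (20.3 ± 2.27) and CLDN3 (18.1 ± 2.06) came next. CLDN1 lay above CLDN3 in each library, and TJP3 overlapped both. HCC1395 had another order: TJP1 led at 7.81 ± 0.253 CPM per kb, F11R followed at 2.83 ± 0.130, and all 4 claudins lay between 0.137 and 0.612.

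The make-up of the claudin family differed in the same way. Over 24 claudin genes, the summed level under DMSO was 142 ± 5.51 CPM per kb in HCC38, 197 ± 13.6 in HCC1937 and 12.9 ± 0.316 in HCC1395 (SD, n = 3). CLDN1, CLDN3, CLDN4 and CLDN7 together made up 90.2% of that sum in HCC38, 91.3% in HCC1937 and 13.1% in HCC1395. In HCC1395 the sum came mainly from CLDN12 (38.2%), CLDN23 (27.3%) and CLDN15 (15.6%). CLDN12 is a claudin without the usual binding motif for scaffolds at its end, and CLDN15 is known as a sodium pore.

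With both inhibitors the summed claudin level per kb was 172 ± 17.2 in HCC38, 239 ± 13.4 in HCC1937 and 20.7 ± 0.348 in HCC1395, and the shares moved towards CLDN1. In HCC38 its share was 2.07% and then 10.8%, in HCC1937 10.9% and then 28.6%, and in HCC1395 4.76% and then 7.23%, with no overlap between the DMSO and combination libraries in any line. CLDN7 made up 25.3% of the sum in HCC38 with DMSO and 16.7% with both inhibitors, and 33.8% and 19.8% in HCC1937. In HCC1395 CLDN23 went from 27.3% to 40.2% and CLDN12 from 38.2% to 23.5%. These shares are descriptions with no test of their own.

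**Figure D2:**
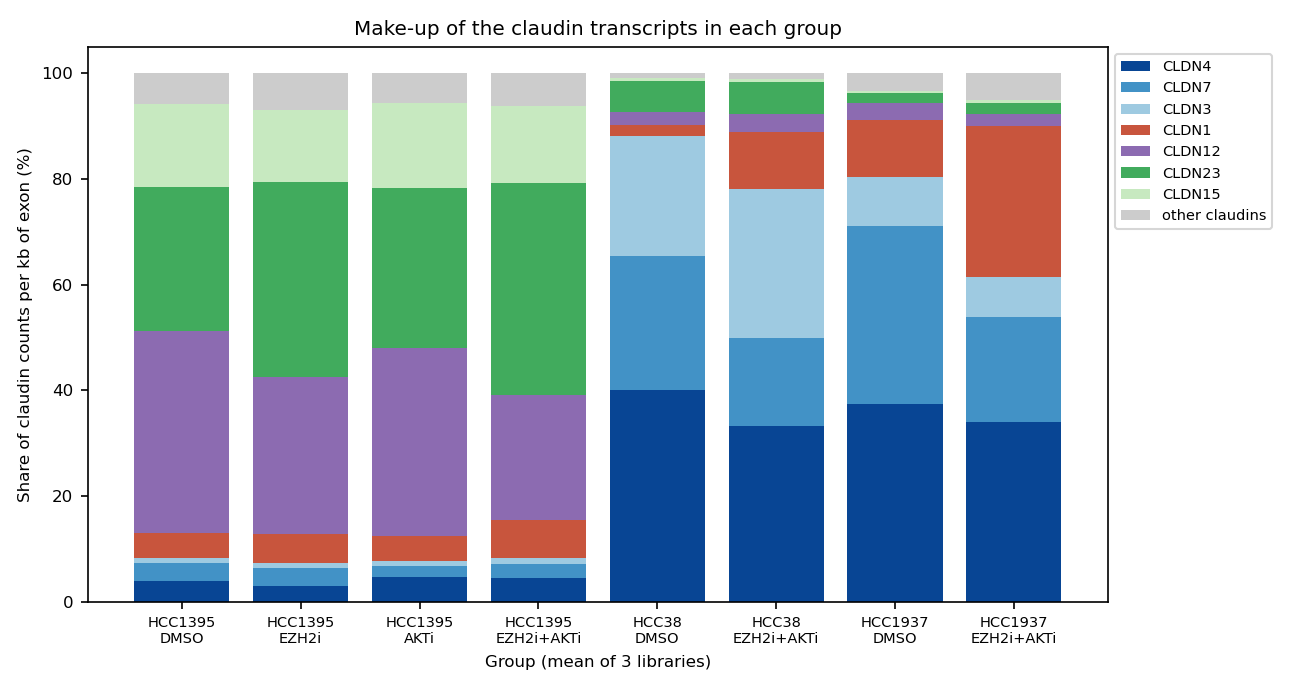
Share of each claudin in the summed level of 24 claudins (percent of CPM per kb of exon, mean of 3 libraries) in the 8 groups. CLDN4, CLDN7, CLDN3 and CLDN1 fill 88.8 to 91.3% of the bar in HCC38 and HCC1937, CLDN12, CLDN23 and CLDN15 most of it in HCC1395, and the CLDN1 segment is wider with both inhibitors in each line.

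EZH2 inhibition alone was given only to HCC1395. There JAM3, TJP3, F11R, OCLN and CLDN1 rose against DMSO and 0 of the 9 genes fell, where 18.8% of 18074 genes were called higher and 14.9% lower. The median log2 change was 0.49 over the 9 genes and 0.02 over all genes. JAM3 stood at 17.8, 16.7 and 17.5 CPM with EZH2i against 2.83, 2.11 and 2.03 CPM, a 7.46-fold difference (2.90 ± 0.13, edgeR adjusted p = 3.83e-13). TJP3, a scaffold found mainly in epithelia, rose from 1.83, 2.02 and 1.86 CPM to 5.14, 4.76 and 5.17 CPM (1.40 ± 0.13, 4.1e-08). Every treated library of these 2 genes lay above every DMSO library.

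The other changes under EZH2i were smaller. F11R, an adhesion molecule that recruits polarity proteins, stood at 14.8, 14.6 and 13.6 CPM under DMSO and 22.2, 22.7 and 23.1 CPM under EZH2i (0.66 ± 0.06, adjusted p = 5.66e-08). OCLN went from 1.67, 1.74 and 2.06 CPM to 2.32, 3.14 and 2.98 CPM (0.64 ± 0.17, 0.00484), and CLDN1, a main barrier claudin, from 2.37, 2.08 and 2.28 CPM to 3.02, 3.01 and 3.41 CPM (0.49 ± 0.13, 0.0062). None of these treated groups overlapped its DMSO group. CLDN3, CLDN4, CLDN7 and TJP1 were not called. Their log2 changes were -0.02 ± 0.68, -0.16 ± 0.18, 0.36 ± 0.22 and -0.11 ± 0.06, and TJP1 passed the threshold when the fit held only these 2 groups (-0.11, edgeR adjusted p = 0.0387).

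AKT inhibition alone raised 6 of the 9 genes in HCC1395 and lowered 1, JAM3, in a comparison where 27.1% of all genes were called higher and 22.6% lower. TJP3 rose most, to 4.44, 4.70 and 3.94 CPM (1.19 ± 0.13, edgeR adjusted p = 2.17e-07). OCLN rose to 3.10, 2.63 and 2.88 CPM (0.65 ± 0.17, 0.00277) and F11R to 21.1, 21.4 and 21.7 CPM (0.57 ± 0.06, 2.22e-07). Both groups cleared their DMSO libraries. CLDN4 rose to 3.90, 3.72 and 3.32 CPM (0.59 ± 0.17, 0.00623), just above the highest DMSO value of 3.10 CPM in library B. TJP1 rose to 109, 109 and 115 CPM (0.33 ± 0.06, 0.000206).

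CLDN1 under AKTi stood at 3.07, 2.9997 and 2.88 CPM (0.41 ± 0.13, adjusted p = 0.0156). Its groups did not overlap, but the call was lost without DMSO B (0.35, 0.0646), with no low-count filter (0.0911) and with DESeq2 (0.0514). JAM3 fell to 1.34, 0.876 and 0.951 CPM, 0.454 of its DMSO level (-1.14 ± 0.18, edgeR adjusted p = 1.55e-05), so the agents had opposite signs for this gene. CLDN7 (-0.27 ± 0.24) and CLDN3 (0.08 ± 0.68) were not called.

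With both inhibitors 7 of the 9 genes rose in HCC1395 and 0 fell, where 32.5% of all genes were called higher and 27.4% lower. The median log2 change was 0.92 over the 9 genes and 0.07 over all genes. TJP3 reached 8.45, 9.09 and 7.34 CPM, 4.34-fold its DMSO level (2.12 ± 0.13, edgeR adjusted p = 8.44e-12). CLDN1 reached 5.10, 5.78 and 5.51 CPM (1.27 ± 0.13, 2.06e-08), OCLN 3.41, 3.88 and 4.43 CPM (1.08 ± 0.16, 6.49e-06) and F11R 27.1, 28.3 and 26.7 CPM (0.92 ± 0.06, 7.29e-11). For these 4 genes the lowest combination library lay above the highest library of either single agent. How many of all genes had that order was not counted.

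JAM3 stood at 15.4, 17.7 and 15.3 CPM with both inhibitors (2.79 ± 0.13, edgeR adjusted p = 1.14e-13), overlapping the libraries with EZH2i alone. CLDN4 stood at 4.24, 4.92 and 3.71 CPM (0.83 ± 0.17, 0.000189) and TJP1 at 111, 96.5 and 121 CPM (0.31 ± 0.06, 0.000277), both overlapping the libraries with AKTi alone. CLDN7, at 1.27, 1.55 and 1.44 CPM, was not called (0.44 ± 0.22, 0.096) and was called without DMSO A (0.64, 0.0327). CLDN3, at 0.173, 0.347 and 0.359 CPM from 9 to 17 counts a library, was not called (0.70 ± 0.62).

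Set against the single agents, the combination gave 6 higher and 0 lower genes in each comparison. Against EZH2i alone, where 23.9% of all genes were called higher and 25.1% lower, CLDN4 (0.99 ± 0.17), CLDN1 (0.78 ± 0.12), TJP3 (0.72 ± 0.11), OCLN (0.44 ± 0.15), TJP1 (0.42 ± 0.06) and F11R (0.26 ± 0.06) were higher. JAM3 was not called, with a 95% interval of the log2 difference from -0.32 to 0.09. Against AKTi alone, where 17.0% were called higher and 18.6% lower, JAM3 was higher by 3.92 ± 0.16 (edgeR adjusted p = 4.73e-14). TJP3 (0.93 ± 0.11), CLDN1 (0.87 ± 0.12), CLDN7 (0.71 ± 0.23), OCLN (0.43 ± 0.15) and F11R (0.35 ± 0.06) were higher too, and the intervals of TJP1 (-0.15 to 0.11) and CLDN4 (-0.09 to 0.57) held 0.

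Some of these calls rested on single libraries. OCLN against EZH2i (adjusted p = 0.0195) was not called without EZH2i A (0.33, 0.0991) or EZH2i+AKTi C (0.35, 0.0804). Against AKTi (0.0301) it was not called without AKTi B (0.37, 0.111), AKTi C (0.44, 0.0712) or EZH2i+AKTi C (0.34, 0.103). CLDN7 against AKTi (0.018) was not called without AKTi B (0.61, 0.0776) or EZH2i+AKTi B (0.66, 0.0591).

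The interaction, which asks whether the combination departs from what the single agents add up to on the log2 scale, was called for JAM3 alone among the 9 genes. Of all genes, 0.526% were called higher and 1.06% lower, 95 and 191 genes, and 146 and 125 with the size factors of DESeq2. That total of 286 ranged from 127 without EZH2i B to 1022 without EZH2i+AKTi C. For JAM3 the interaction was 1.02 ± 0.20 (edgeR adjusted p = 0.0102). JAM3 changed by -1.14 with AKTi against DMSO, while the combination differed from EZH2i by -0.11. It was not called without AKTi B (0.91, 0.057). TJP3 (-0.47 ± 0.17, 0.217), F11R (-0.31 ± 0.09, 0.0869) and CLDN1 (0.38 ± 0.18, 0.373) were not called, and TJP1 (0.09 ± 0.09) was called only without EZH2i+AKTi B (0.26, 0.0354).

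Other genes moved beside these changes in HCC1395. NCAPD3, a condensin subunit that overlaps JAM3 on the opposite strand, was more abundant, at 99.5 CPM with DMSO, 84.0 with EZH2i, 51.5 with AKTi and 44.9 with the combination. It fell in all of these comparisons with DMSO (-0.24 ± 0.05, -0.96 ± 0.05 and -1.16 ± 0.05), so it moved against JAM3 under EZH2i and with both inhibitors, and with it under AKTi. Whether the counting used strand is not given in the sources used here. ELP5, an Elongator subunit gene that overlaps CLDN7, stood at 52.6, 51.5, 44.3 and 44.6 CPM with DMSO, EZH2i, AKTi and the combination, where CLDN7 was at most 1.55 CPM in any library, and its part in the low CLDN7 values was not tested. The part of NCAPD3 in the values of JAM3 was not tested. Summed epithelial markers were 514 to 535 CPM with DMSO, 692 to 734 with EZH2i, 486 to 525 with AKTi and 692 to 818 with the combination. Summed mesenchymal markers were 2438 to 2660, 2033 to 2092, 3932 to 4159 and 3167 to 3504 CPM in the same order, with all 7 at a mean of at least 1 CPM, and ZEB1 stood at 39.7, 30.2, 44.4 and 29.7 CPM. KRT14 alone made up most of the epithelial sum in each treatment. It stood at 431 CPM with DMSO, 582 with EZH2i, 327 with AKTi and 505 with the combination. KRT8 stood at 32.5, 44.8, 95.9 and 125 CPM in that order and EPCAM at 1.75, 4.84, 1.40 and 4.93 CPM. CDH1 reached at most 1.02 CPM in any library. VIM made up most of the mesenchymal sum in each treatment, at 1529, 1285, 2719 and 2307 CPM, and ZEB2 stood at 23.0, 18.5, 21.8 and 17.5 CPM. Summed fibroblast markers were 787 to 808, 817 to 839, 933 to 949 and 834 to 913 CPM in that order, none overlapping DMSO. That sum came mainly from COL1A2, and COL3A1, DCN and LUM were at most 0.497 CPM. The part of these markers in the results was not tested.

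**Figure D3:**
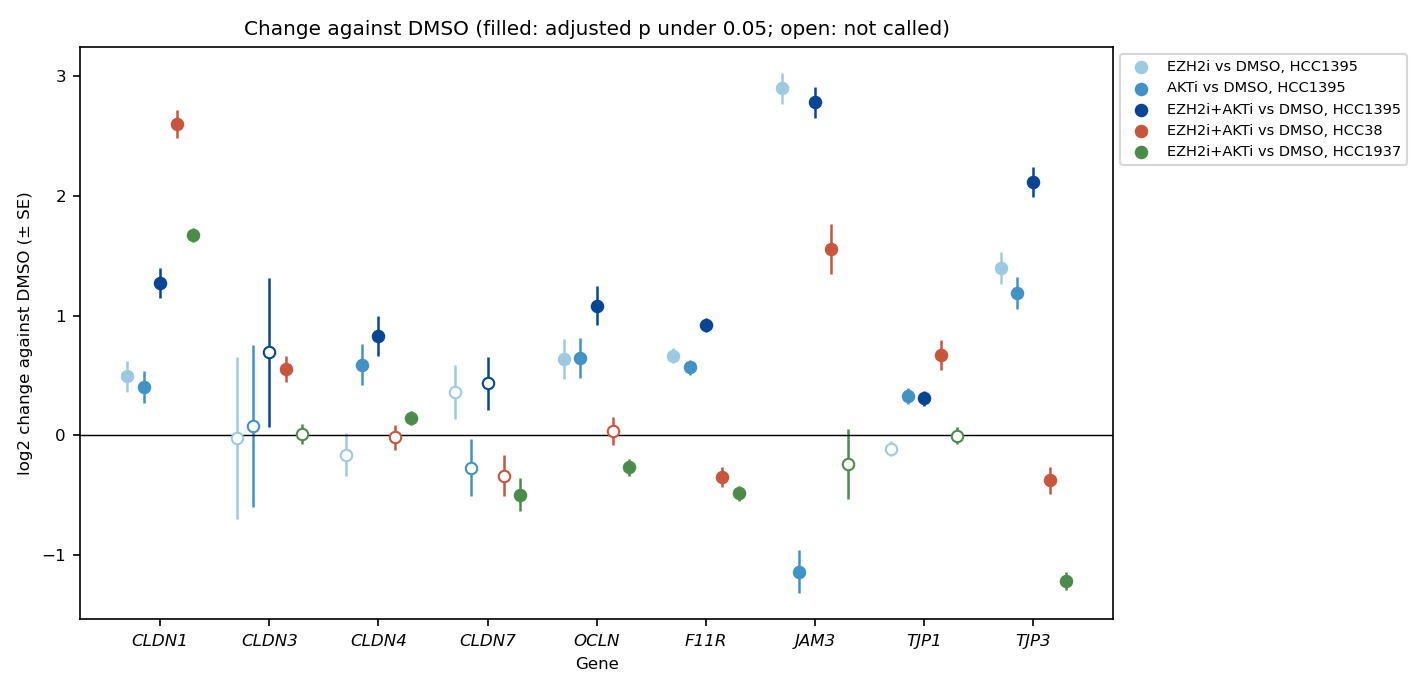
Log2 change against DMSO of each of the 9 genes with its standard error, for the 3 treatments of HCC1395 and for both inhibitors in HCC38 and HCC1937; filled points were called and open points were not. CLDN1 lies above 0 in all 5 comparisons, while TJP3 and F11R lie above 0 in HCC1395 and below 0 in the other lines.

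In HCC38 both inhibitors raised CLDN1, CLDN3, JAM3 and TJP1 and lowered F11R and TJP3, where 16.8% of 17100 genes were called higher and 14.5% lower. Those 5362 calls became 3520 without DMSO A, 3114 without DMSO B and 3300 without EZH2i+AKTi B. CLDN1 changed most, from 10.95, 10.2 and 11.002 CPM to 61.6, 60.9 and 77.3 CPM, a 6.07-fold rise (2.60 ± 0.12, edgeR adjusted p = 1.37e-06). JAM3 rose from 0.799, 1.32 and 1.18 CPM to 3.38, 2.95 and 3.63 CPM (1.56 ± 0.21, 0.000437). Neither gene's groups came close to each other. The median log2 change was 0.04 over the 9 genes and -0.01 over all genes.

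The scaffold TJP1 rose in HCC38 from 91.2, 80.8 and 91.9 CPM to 123, 133 and 173 CPM (0.67 ± 0.13, adjusted p = 0.00335). CLDN3 rose from 43.5, 41.7 and 37.5 CPM to 66.9, 62.0 and 55.5 CPM (0.56 ± 0.11, 0.00364). F11R fell from 222, 224 and 222 CPM to 168, 182 and 186 CPM (-0.35 ± 0.09, 0.0119). TJP3 fell from 19.2, 20.0 and 19.9 CPM to 17.0, 15.9 and 13.6 CPM (-0.38 ± 0.11, 0.0298). The groups of all 4 genes were apart.

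The 2 falls in HCC38 were the less stable calls. F11R was not called without DMSO A (-0.36, edgeR adjusted p = 0.0579), DMSO B (-0.34, 0.0518), DMSO C (-0.36, 0.0502) or EZH2i+AKTi B (-0.33, 0.0657). TJP3 was not called without the same libraries (0.0782, 0.101, 0.094 and 0.116) or with the stricter filter (0.0506). Without EZH2i+AKTi C, the library with the highest mitochondrial share, the same 6 genes were called: CLDN1 at 2.52, JAM3 at 1.53, CLDN3 at 0.66, TJP1 at 0.55, F11R at -0.34 and TJP3 at -0.25.

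CLDN7, CLDN4 and OCLN were not called in HCC38. CLDN7 stood at 88.6, 77.0 and 50.8 CPM with both inhibitors against 90.2, 94.4 and 83.1 CPM (-0.34 ± 0.17, adjusted p = 0.167), and library C gave the low value. Its change was -0.10 (0.393) without that library and was called without library A (-0.49, 0.0266) and with no low-count filter (-0.35, 0.0226). CLDN4 stood at 305, 266 and 238 CPM with both inhibitors, around its DMSO values (95% interval of the log2 change -0.25 to 0.22), and OCLN at 21.0, 22.3 and 26.8 CPM against 23.3, 20.4 and 23.0 CPM (-0.22 to 0.30). Summed epithelial markers overlapped between the groups (5622 to 6264 and 4701 to 6129 CPM). Within that sum EPCAM went from 508 to 406 CPM and KRT8 from 987 to 750 CPM without overlap, while KRT7 and CDH1 overlapped. Summed mesenchymal markers did not overlap (1082 to 1168 and 1232 to 1536 CPM). VIM made up most of that sum but overlapped, at 952 and 956 CPM, while ZEB1 went from 0.77 to 1.81 CPM. Summed fibroblast markers, which came mainly from COL1A1, did not overlap (23.2 to 25.0 and 32.9 to 35.2 CPM). NCAPD3 went from 34.7 to 28.95 CPM, the direction opposite to JAM3. ELP5, which overlaps CLDN7, went from 30.7 to 21.9 CPM (-0.52 ± 0.12), the same direction as CLDN7. The part of these in the results was not tested.

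In HCC1937 both inhibitors raised CLDN1 and CLDN4 and lowered TJP3, CLDN7, F11R and OCLN, where 30.5% of 17692 genes were called higher and 28.8% lower. The median log2 change was -0.24 over the 9 genes and 0.03 over all genes. CLDN1 rose from 77.2, 74.8 and 82.3 CPM to 260.03, 238 and 252 CPM, a 3.20-fold rise (1.68 ± 0.06, edgeR adjusted p = 1e-11). TJP3 fell from 94.96, 85.6 and 75.8 CPM to 36.0, 35.7 and 38.9 CPM, 0.431 of its DMSO level (-1.21 ± 0.08, 4.64e-09). Both genes had groups far apart, in opposite directions.

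F11R fell in HCC1937 from 334, 352 and 333 CPM to 230.2, 234 and 266 CPM (-0.48 ± 0.06, adjusted p = 7.81e-06). OCLN fell from 40.2, 48.1 and 46.3 CPM to 36.8, 37.7 and 37.6 CPM (-0.27 ± 0.07, 0.00572). CLDN7 fell from 188, 163 and 148 CPM to 97.5, 120.44 and 137 CPM (-0.49 ± 0.14, 0.0167). None of the 3 overlapped, though CLDN7 was not called without DMSO A (-0.41, 0.0727), its highest library.

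CLDN4 stood at 366, 375 and 408 CPM with both inhibitors against 366, 341 and 329 CPM (0.15 ± 0.06, adjusted p = 0.0476). Combination library A and DMSO library A lay at the same level, and the call was lost under RLE scaling (0.0773), no filter (0.135), DESeq2 (0.0977) and the joint fit (0.175). It was also lost without DMSO B (0.13, 0.164), DMSO C (0.11, 0.214), EZH2i+AKTi B (0.16, 0.0971) or EZH2i+AKTi C (0.08, 0.313). CLDN3, at 23.4, 22.7 and 23.6 CPM (95% interval of the log2 change -0.17 to 0.18), TJP1, at 133, 118 and 115 CPM (-0.15 to 0.15), and JAM3, at 0.570, 0.641 and 0.698 CPM (-0.87 to 0.39), were not called.

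Markers of HCC1937 moved too. Summed epithelial markers were 9483 to 10190 CPM under DMSO and 12460 to 13740 CPM with both inhibitors. Within that sum KRT7 went from 3472 to 7670 CPM. KRT8 went the other way, from 3471 to 3013 CPM, as did EPCAM, from 336 to 206 CPM, and CDH1, from 694 to 303 CPM. Summed mesenchymal markers were 189.6 to 232 and 278 to 292 CPM, with ZEB1 at 0.23 and 0.26 CPM. Within that sum VIM went the other way, from 59.3 to 46.3 CPM, while ZEB2 went from 0.62 to 1.82 CPM. Summed endothelial markers were 36.4 to 39.3 and 66.9 to 71.6 CPM, with 4 of 6 at a mean of at least 1 CPM, CDH5 at 14.6 and 32.9 CPM and PECAM1 at 21.7 and 30.9 CPM. Summed fibroblast markers were 15.99 to 17.6 and 12.7 to 13.5 CPM. ELP5 stood at 59.6 and 57.4 CPM (-0.05 ± 0.08) where CLDN7 fell. NCAPD3 went from 77.4 to 37.0 CPM (-1.07 ± 0.07), the same sign as JAM3 (-0.24 ± 0.29), which was not called. JAM3 rested there on 24 to 39 counts a library under DMSO and 21 to 32 with both inhibitors. The part of the markers and of these overlapping genes in the results was not tested.

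CLDN1 was the 1 gene of the 9 that was called higher in all 5 comparisons with DMSO. The 3 comparisons in HCC1395 share their DMSO libraries and so are not independent of each other. Taken singly, the 5 comparisons called 16.8 to 32.5% of all genes higher and 14.5 to 28.8% lower. How many of all genes were called in several of them was not counted, so these tallies are descriptions. TJP1, OCLN, F11R, JAM3, TJP3 and CLDN4 were called higher in 3 of the 5, and TJP1 and CLDN4 were never called lower. F11R and TJP3 were called lower in the other 2, which are those of HCC38 and HCC1937. CLDN7 was called lower in 1 and higher in 0.

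The difference between lines in the response to both inhibitors was tested in a joint fit of all 24 libraries. The response was lower in HCC38 than in HCC1395 for 5 genes and higher for 2, where 15.6% of 20697 genes were called lower and 17.4% higher. TJP3 differed most, by -2.47 ± 0.16 (edgeR adjusted p = 4.76e-13), followed by CLDN1 at 1.35 ± 0.14 (1.66e-08), F11R at -1.25 ± 0.09 (8.2e-12), JAM3 at -1.21 ± 0.25 (0.000448), OCLN at -1.02 ± 0.18 (4.02e-05) and CLDN4 at -0.83 ± 0.17 (0.000245). TJP1 had a larger response in HCC38 (0.38 ± 0.13, 0.0263). That call was lost without HCC38 DMSO B (0.33, 0.0829), HCC38 EZH2i+AKTi C (0.23, 0.106), HCC1395 DMSO A (0.37, 0.0572), HCC1395 DMSO B (0.37, 0.051) or HCC1395 EZH2i+AKTi B (0.30, 0.094). So the rises of TJP3 and F11R in HCC1395 and their falls in HCC38 differed by test, and CLDN1 rose more in HCC38. The difference for CLDN7 was not called (-0.75 ± 0.33, 0.0896), but was with no filter (0.00165), with DESeq2 (0.0221) and without HCC38 EZH2i+AKTi A (-0.92, 0.032).

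Between HCC1937 and HCC1395, 6 responses were lower in HCC1937 and 1 was higher, where 23.3% of all genes were called (2493 lower and 2332 higher). TJP3 (-3.34 ± 0.15), JAM3 (-3.02 ± 0.29), F11R (-1.41 ± 0.09), OCLN (-1.35 ± 0.18), CLDN7 (-0.93 ± 0.33) and CLDN4 (-0.70 ± 0.17) were lower. CLDN1 was higher by 0.40 ± 0.14 (edgeR adjusted p = 0.0357). The call of CLDN1 was lost when HCC1937 DMSO A, DMSO B, EZH2i+AKTi A or EZH2i+AKTi C, or HCC1395 DMSO A, DMSO C, EZH2i+AKTi A or EZH2i+AKTi C was left out, with values of 0.34 to 0.40 and adjusted p of 0.0534 to 0.123, and with no low-count filter (0.0853). That of CLDN7 (0.0433) was lost without HCC1937 DMSO A, DMSO B, EZH2i+AKTi A or EZH2i+AKTi B, or HCC1395 DMSO B, DMSO C, EZH2i+AKTi B or EZH2i+AKTi C, with values of -0.95 to -0.77 and adjusted p of 0.0539 to 0.138. TJP1 was not called (-0.32 ± 0.13, 0.0869), but was with no filter (0.0381) and without HCC1937 DMSO A (-0.38, 0.0471), HCC1937 EZH2i+AKTi A (-0.38, 0.0484) or HCC1395 EZH2i+AKTi B (-0.40, 0.0256).

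Between HCC38 and HCC1937, 5 responses were higher in HCC38 and 0 lower, where 17.7% of all genes were called higher and 14.3% lower. They were those of JAM3 (1.82 ± 0.32, edgeR adjusted p = 4.62e-05), CLDN1 (0.95 ± 0.11, 1.24e-07), TJP3 (0.87 ± 0.13, 4.57e-06), TJP1 (0.70 ± 0.13, 0.000148) and CLDN3 (0.58 ± 0.17, 0.0104). TJP3 thus fell in both lines and fell further in HCC1937. The other 4 genes were not called, with 95% intervals of -0.39 to 0.12 for CLDN4, -0.23 to 0.61 for CLDN7, 0.05 to 0.62 for OCLN (0.0677) and -0.01 to 0.34 for F11R (0.138). OCLN was called without HCC38 EZH2i+AKTi A (0.41, 0.0201) or HCC1937 DMSO A (0.41, 0.0287), F11R without HCC38 EZH2i+AKTi A (0.21, 0.0418) or HCC1937 EZH2i+AKTi C (0.23, 0.0408), and CLDN7 without HCC38 EZH2i+AKTi C (0.39, 0.0485).

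A list of 54 other tight junction genes gave the setting. In HCC1395, 43 of them were tested. EZH2i raised 20 and lowered 5, AKTi raised 20 and lowered 2, and both raised 26 and lowered 3, beside the shares of all genes given above. Median log2 changes over the list were 0.32, 0.26 and 0.40. In HCC38, 11 of 39 rose and 3 fell with both inhibitors, and in HCC1937 23 of 43 rose and 9 fell, with medians of 0.18 and 0.26.

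Of the 4 other adhesion molecules of the immunoglobulin family, 3 were called higher and 0 lower under EZH2i (18.8% and 14.9% of all genes). Under AKTi 1 was higher and 0 lower (27.1% and 22.6%), and under both 2 were higher and 0 lower (32.5% and 27.4%). With both against EZH2i alone 0 were higher and 2 lower (23.9% and 25.1%). JAM2, known in endothelium and a partner of JAM3, rose from 1.55 ± 0.293 CPM (SD, n = 3) to 6.66 ± 0.385 CPM (2.11 ± 0.16 SE on the log2 scale). Its level with AKTi alone was 1.73 ± 0.294 CPM and with both inhibitors 4.92 ± 0.572 CPM (1.65 ± 0.16 SE against DMSO). LSR, which marks the corners where cells meet, rose from 51.3 CPM under DMSO to 78.6 CPM under EZH2i and 91.9 CPM under both (0.62 ± 0.06 and 0.83 ± 0.06). Of 4 tested genes of the tricellular and MARVEL group, 3 rose under EZH2i, 1 under AKTi and 3 under both, and 0 fell in each.

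Of all genes in HCC1395, 18.8% were called higher and 14.9% lower under EZH2i, 27.1% and 22.6% under AKTi, and 32.5% and 27.4% under both. Other claudins gave 3 called higher of 9 tested under EZH2i, 4 higher and 1 lower under AKTi, and 4 higher under both. CLDN23 stood at 7.62 CPM with DMSO, 12.4 with EZH2i, 11.03 with AKTi and 18.01 with the combination (0.71 ± 0.09, 0.53 ± 0.09 and 1.23 ± 0.09). Scaffolds gave 5 of 11 higher under EZH2i, 7 of 11 under AKTi, and 8 higher and 1 lower under both. Among the polarity genes 4, 5 and 6 of 8 rose in the same order, and 1, 0 and 1 fell. PRKCZ, an atypical protein kinase C of the PAR complex, went from 19.1 CPM to 28.4 under AKTi and 32.5 under both (0.56 ± 0.08 and 0.76 ± 0.08). In the signalling group, which holds the angiomotins AMOT, AMOTL1 and AMOTL2, 2 rose and 4 fell under EZH2i, and 3 rose and 1 fell under both. AMOTL1 rose to 28.5 CPM with both inhibitors from 11.2 CPM (1.33 ± 0.11), and AMOTL2 rose under AKTi (0.58 ± 0.06) and fell under EZH2i (-0.33 ± 0.06).

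In HCC38, where 16.8% of all genes were called higher and 14.5% lower, 5 of 11 scaffolds rose and 2 fell, and 0 of 8 polarity genes were called at the adjusted edgeR threshold. At an unadjusted edgeR threshold of 0.05, 1 of the 8 passed, PARD3 (adjusted p = 0.0965). MAGI1, a scaffold with guanylate kinase and PDZ domains, went from 6.55 to 13.0 CPM (0.96 ± 0.13), AMOTL1 from 23.6 to 58.3 CPM (1.27 ± 0.12), ILDR1, a tricellular protein, from 4.46 to 10.5 CPM (1.21 ± 0.12) and CLDN12 from 24.0 to 40.6 CPM (0.73 ± 0.13). In HCC1937, where 30.5% of all genes were called higher and 28.8% lower, the signalling group rose in 7 of 7 genes, AMOTL2 among them (0.84 ± 0.05), and 1 of 8 polarity genes rose and 3 fell, led by MPP5 (PALS1, -0.71 ± 0.06). CLDN16, whose start lies 66 bp from that of CLDN1, went from 0.47 ± 0.159 to 2.71 ± 0.398 CPM (SD, n = 3) in that line, a log2 change of 2.55 ± 0.26 SE. CLDN9 went from 7.70 to 17.5 CPM (1.18 ± 0.10) and the scaffold CGNL1 from 7.13 to 16.8 CPM (1.23 ± 0.10).

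**Figure D4:**
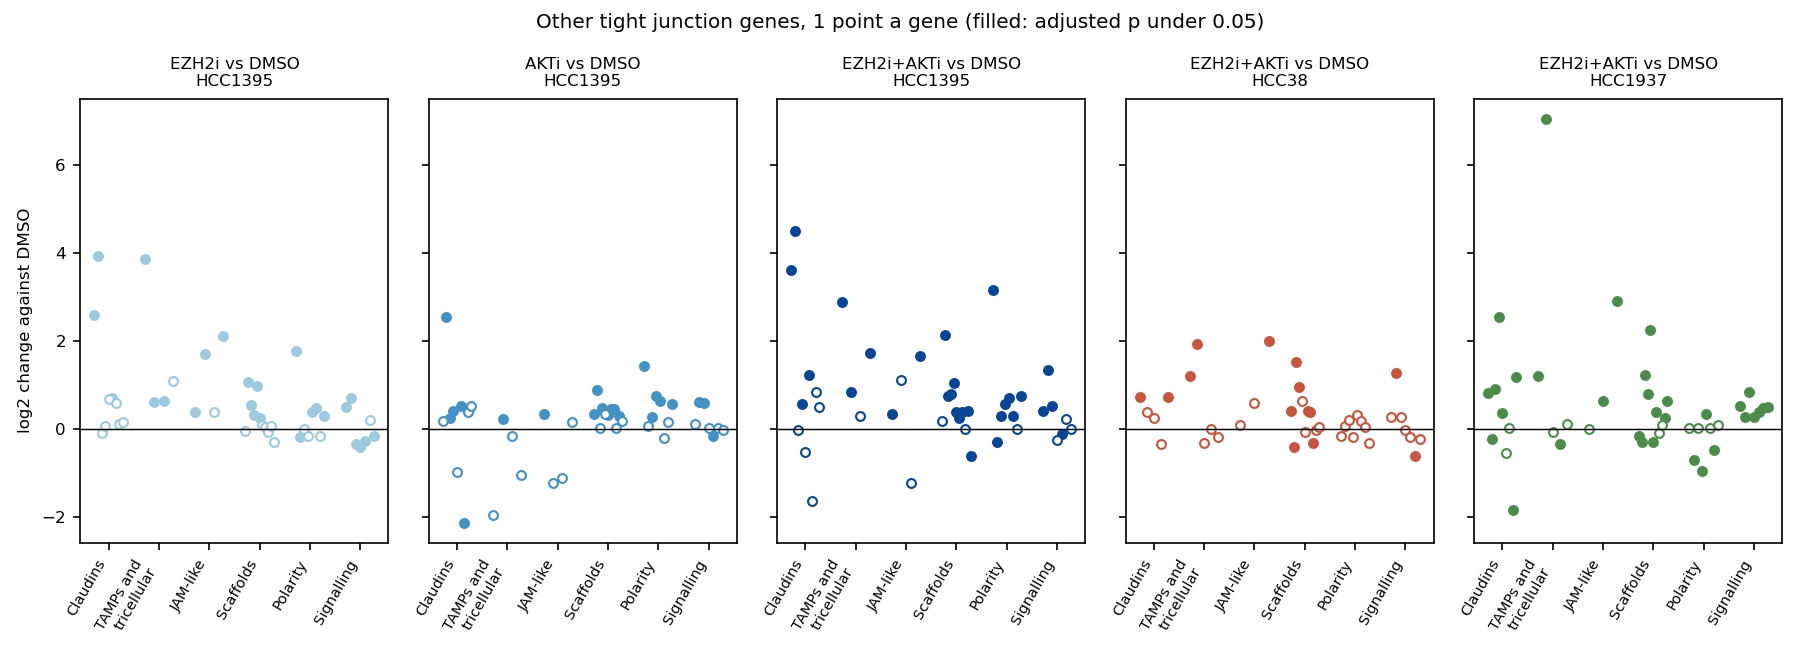
Log2 change against DMSO of the tested genes of the 54-gene list, by group, in each of the 5 comparisons; filled points were called. Called points above 0 outnumber those below in each comparison (20 and 5, 20 and 2, 26 and 3, 11 and 3, 23 and 9); the highest point in HCC1937 is ILDR2, which had no count there under DMSO, so its position is set by the prior count.

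Between lines under DMSO, 46 genes of the list were tested. In HCC38 against HCC1395, 24 were higher and 13 lower, where 38.2% and 36.5% of all genes were. In HCC1937 against HCC1395, 27 were higher and 14 lower (37.3% and 35.7% of all genes). In HCC1937 against HCC38, 19 were higher and 17 lower, near the 36.2% and 35.6% of all genes. CRB3, the apical polarity protein Crumbs, stood at 43.5 CPM in HCC38, 35.2 in HCC1937 and 0.19 in HCC1395. CGN (cingulin) stood at 35.1, 13.7 and 0.42 CPM, and MARVELD3, which is related to occludin, at 32.2, 35.1 and 0.13 CPM. These 3 genes had the same order as CLDN3 and CLDN4 in that HCC1395 was far below both other lines. With both inhibitors in HCC1395 CRB3 reached 1.75 ± 0.269 CPM and CGN 1.86 ± 0.287 CPM (SD, n = 3), still under the levels of the other lines.

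Within HCC1395, the likeness of each gene to all others was measured by Pearson's r of log2 CPM over 12 libraries in 4 treatments. The libraries share treatments, so r mainly reflects 4 group levels, and it is given as a description with no p. The gene most like CLDN1 was SLC1A4 (0.990), that most like OCLN was NR3C2 (0.971) and that most like CLDN4 was TPRN (0.965). F11R was most like FUCA1 (0.993), TJP3 was most like HTRA1 (0.994) and TJP1 was most like NCOA7 (0.990). JAM3 was most like PDLIM4 (0.994), NBL1 (0.989) and IGF2BP1 (0.988). Among the 9 genes the closest pair was F11R and TJP3 (0.988), and CLDN4 and JAM3 gave -0.08. Over all 24 libraries r mixes differences between lines with those between treatments and is not given.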

How the data were processed

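Raw read counts per gene, 1 table for each of 24 libraries, were used as the authors deposited them. Per the submitters' processing notes the tools were fastp, HISAT2 2.0.5 and DESeq2 and the build was hg38. For the counter, its annotation and its use of strand, the entry is: not given in the sources used here. In all, 24 columns of deposited normalised values were not used. In R 4.3.3, edgeR 4.0.16 (with limma 3.58.1) tested the counts: filterByExpr (minimum count 10), TMM scaling, robust dispersions and the two-sided quasi-likelihood test, with Benjamini-Hochberg adjustment at 0.05. Lines were fitted alone (18074, 17100 and 17692 genes in HCC1395, HCC38 and HCC1937) and together (20697). All 9 genes passed the minimum-count filter in each of these fits. CPM carries the TMM scale of the joint fit, and exon lengths are those of GENCODE 29. Intervals are at 95%. The scripts were tested on simulated data. Alternatives were RLE scaling, no filter, a stricter filter (1 CPM in 3 libraries), DESeq2 1.42.0, other sets of libraries in the fit, the replicate letter as a block, and leaving out each library. The 9 genes and the lists were chosen with earlier results of these data known. Named genes were the 9 in every comparison, for the list the 5 called genes with the smallest p in each, and for likeness the 3 genes with the highest r; the text gives part of these. Levels of marker genes such as CDH1 and ZEB1, of NCAPD3, ELP5 and PARD3, and of list genes in comparisons other than those that named them (AMOTL2 under EZH2i, for example) fall outside that rule and were chosen after their values were seen.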

Additional observations from a re-analysis of the deposited data

Results flagged for a closer look

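Differences between lines in the response to both inhibitors passed the edgeR test in the joint fit for 19 pairs of gene and lines, and no cause was weighed. HCC38 less HCC1395 gave a log2 difference of 1.35 for CLDN1, -0.83 for CLDN4, -1.02 for OCLN, -1.25 for F11R, -1.21 for JAM3, 0.38 for TJP1 and -2.47 for TJP3. HCC1937 less HCC1395 gave 0.40 for CLDN1, -0.70 for CLDN4, -0.93 for CLDN7, -1.35 for OCLN, -1.41 for F11R, -3.02 for JAM3 and -3.34 for TJP3. HCC38 less HCC1937 gave 0.95 for CLDN1, 0.58 for CLDN3, 1.82 for JAM3, 0.70 for TJP1 and 0.87 for TJP3. The 3 sets share libraries, so they are not independent of each other.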

How the results depend on the processing

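The 9 genes gave 126 values over 14 comparisons, of which 89 were called. Of these, 76 stayed called under every alternative run and 13 were lost under at least 1. Of 37 not called, 9 were called under at least 1. Of 1665 alternative values, 39 took the other sign, over 10 of the values, and 0 of these were called in either fit. For the interaction over all genes (286 calls), DESeq2 gave 477, no filter 422, and leaving out each library 127 to 1022, with 0 to 2 of the 9 genes called. All calls in HCC38 (5362) ranged from 3114 to 6715 when 1 library was left out. The letters A, B and C gave no pairing: deviations of same-letter libraries correlated at -0.0624 to 0.0741 over 18 pairs in HCC1395, -0.0842 to 0.109 over 3 in HCC38 and -0.208 to -0.0759 over 3 in HCC1937. With the replicate block the interaction gave 247 calls, CLDN4 in HCC1937 was not called (0.15, adjusted p = 0.141), CLDN7 in HCC38 was (-0.37, 0.0281), and the block changed no other call of these genes. A difference between lines under DMSO cannot be adjusted by this block, because its letters are coded within each line. Its fit there compares the lines at the level of letter C. Between HCC1937 and HCC38 that fit gave TJP1 at 0.29 (0.47 without the block) and JAM3 at -0.89 (-0.55 without it). These shifts come with that coding and do not measure pairing. Levels near 1 CPM or below, as for CLDN3 and CLDN7 in HCC1395, rest on few counts and limit those comparisons.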
